A study of Caenorhabditis elegans with 2 samples.

Results

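The regions described here are the chromatin immunoprecipitation sequencing (ChIP-seq) summits on the Caenorhabditis elegans X chromosome that lie in gene promoters. A member is an entry of the authors' pooled relaxed peak list on assembly ce11 whose summit on X falls in a promoter window, from 1000 bp before to 500 bp after the 5′ end of an annotated transcript other than a piRNA. The rule gave 2498 members among the 30000 entries of the list, which by its label holds peaks and background. The same rule gave 11684 summits on the autosomes, and 2749 further entries on X and 13069 on autosomes lay outside promoters. The animals were whole L3 larvae of both sexes, strain OP353, with the allele unc-119(tm4063) on chromosome III and the integrated transgene wgIs353, and the tagged protein is eGFP-nhr-77. The antibody label gives nhr-77 alone, so whether the tag or the protein itself was the antigen is not settled here. There were 2 biological replicates of 1 group, no second condition, and the control library was not analysed here. No test between groups was therefore made. Every comparison below is a description of these 2 libraries, and the 95% intervals are exact Clopper-Pearson intervals that cover counting error only.

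NHR-77 belongs to the nuclear hormone receptors, transcription factors with a zinc finger DNA-binding domain that often binds short elements related to AGGTCA. In hermaphrodites a dosage compensation complex loads onto both X chromosomes at recruitment sites that share a motif with the core GCGCAGGG, and lowers X-linked transcription. Many tRNA genes lie on X in this species; RNA polymerase III transcribes them from A and B boxes inside the gene, and GGTTCGA is the core of the B box.

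The sequences below are those around the summits of the 4 members with the highest signal. They are followed by 1 pair with the B box core and 1 pair with a GA repeat, shown for the motif and not by signal. Each sequence runs 100 bp to either side of the summit, on the strand of the named gene, and was read from the RefSeq genome of the same build (WBcel235, the sequence of ce11). In the first set, the capitals mark GCGCAGGG or its reverse complement CCCTGCGC. The windows belong to the 4 members with the highest signal, and 3 of them hold the motif. The windows are chrX:14525782-14525982 (minus strand), chrX:8036338-8036538 (plus), chrX:16056501-16056701 (plus) and chrX:1344926-1345126 (minus).
nspc-17: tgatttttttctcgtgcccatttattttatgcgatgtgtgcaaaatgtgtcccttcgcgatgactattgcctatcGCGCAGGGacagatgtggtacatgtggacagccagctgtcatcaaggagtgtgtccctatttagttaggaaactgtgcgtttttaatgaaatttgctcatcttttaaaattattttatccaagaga
C18A11.13: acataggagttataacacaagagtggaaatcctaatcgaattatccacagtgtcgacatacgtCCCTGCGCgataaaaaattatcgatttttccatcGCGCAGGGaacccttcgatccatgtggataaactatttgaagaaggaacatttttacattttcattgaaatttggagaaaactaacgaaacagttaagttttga
T27A8.8: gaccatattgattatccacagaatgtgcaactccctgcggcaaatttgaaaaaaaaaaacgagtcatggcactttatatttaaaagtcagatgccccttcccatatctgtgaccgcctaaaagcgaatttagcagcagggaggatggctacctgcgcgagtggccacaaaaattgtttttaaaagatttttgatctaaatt
ins-39: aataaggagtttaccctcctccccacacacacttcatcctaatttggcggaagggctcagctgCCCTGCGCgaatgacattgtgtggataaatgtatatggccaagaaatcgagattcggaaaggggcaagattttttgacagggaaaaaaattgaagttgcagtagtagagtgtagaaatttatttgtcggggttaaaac

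The C18A11.13 window holds the motif at 2 places, once on each strand, and the nearer lies 3 bp from the summit. In the nspc-17 window the motif lies 18 bp from the summit and in the ins-39 window 30 bp. The T27A8.8 window has no exact match of these 8 letters, which says nothing about what binds there.

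The second set shows tRNA genes among the 25 strongest members, picked for an exact match of GGTTCGA, the B box core, in capitals. Of the 234 members with a tRNA gene in the window, 84 held a match (35.9%). The R11.t1 window holds 2 matches. Only letters were matched, so the second, at the end of the gene, need not be a B box. R11.t1 is a tRNA-Tyr gene (window chrX:16209764-16209964, minus strand) and F41D9.t3 a tRNA-Asn gene (window chrX:8404412-8404612, plus strand).
R11.t1: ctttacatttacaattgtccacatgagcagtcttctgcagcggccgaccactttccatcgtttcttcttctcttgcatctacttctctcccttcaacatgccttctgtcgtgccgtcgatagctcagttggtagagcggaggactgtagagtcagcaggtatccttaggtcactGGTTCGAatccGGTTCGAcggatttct
F41D9.t3: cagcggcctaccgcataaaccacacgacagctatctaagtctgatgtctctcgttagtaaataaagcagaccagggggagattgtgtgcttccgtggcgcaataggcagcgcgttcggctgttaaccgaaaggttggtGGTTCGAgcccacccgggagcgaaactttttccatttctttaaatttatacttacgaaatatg

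The last set shows the GA repeat GAGAGAGA, or its reverse complement TCTCTCTC, in capitals. T14G8.5 is a noncoding RNA gene (window chrX:12872381-12872581, plus strand), and the R03G5.8 window (chrX:7823144-7823344, minus strand) lies upstream of eef-1A.2, which encodes translation elongation factor 1 alpha.
T14G8.5: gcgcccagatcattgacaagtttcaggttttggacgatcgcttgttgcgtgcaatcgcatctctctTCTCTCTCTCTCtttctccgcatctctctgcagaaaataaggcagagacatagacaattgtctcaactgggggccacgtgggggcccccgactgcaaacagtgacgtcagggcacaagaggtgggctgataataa
R03G5.8: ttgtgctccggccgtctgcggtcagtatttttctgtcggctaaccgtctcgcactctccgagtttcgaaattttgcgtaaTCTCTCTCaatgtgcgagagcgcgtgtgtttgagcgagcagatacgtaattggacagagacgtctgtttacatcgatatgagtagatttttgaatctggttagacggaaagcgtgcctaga

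X promoter summits had nearly the same median signal as autosomal promoter summits, while the top of the list and the kinds of genes involved differed. The signal value is the authors' own score for each peak, taken to be an enrichment from its place in the narrowPeak layout, since the peak caller is not named. It was used only to rank and describe peaks within a list. The median signal was 8.55 over the 2498 X members and 8.62 over the 11684 autosomal promoter summits. Members numbered 141.0 per Mb of X, against 141.5 per Mb of autosome. The irreproducible discovery rate (IDR) list, which holds the 590 pooled entries with the highest signal, contained 75 members (3.00%, interval 2.37 to 3.75%) and 389 autosomal promoter summits (3.33%, interval 3.01 to 3.67%). Over all pooled entries the share was 1.97%, so X and autosomal promoter summits both stood above that background and their intervals overlapped. Each replicate gave the same picture. Among the first 590 entries of replicate 1 were 3.31% of its X promoter summits and 3.23% of its autosomal ones, and in replicate 2 the shares were 3.13% on X and 3.20% on autosomes.

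X held most of the first few promoter summits by signal, and below these its share was close to its share of all promoter summits. It held 3 of the first 4 promoter summits by signal in the pooled list (75%, interval 19.4 to 99.4%), in replicate 1 and in replicate 2. Of the first 10, X held 4 in the pooled list (40%, interval 12.2 to 73.8%), 4 in replicate 1 and 5 in replicate 2. At the first 100 the share was 18% in the pooled list, 18% in replicate 1 and 15% in replicate 2. These shares sit beside 17.6%, 17.7% and 17.6% of all promoter summits in the same lists. Signal exceeded 100 in 5 members and 16 autosomal promoter summits, and exceeded 150 in 4 members and 5 autosomal ones. The strongest on autosomes were at cdc-48.1 on chromosome II (235.0), rpl-3 on chromosome III (211.6) and Y17G9B.5 on chromosome IV (182.8). Outside promoters, signal exceeded 100 in 15 of 2749 summits on X and exceeded 150 in 12, with a maximum of 426.8. High signal on X was therefore not confined to promoters.

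**Figure D1:**
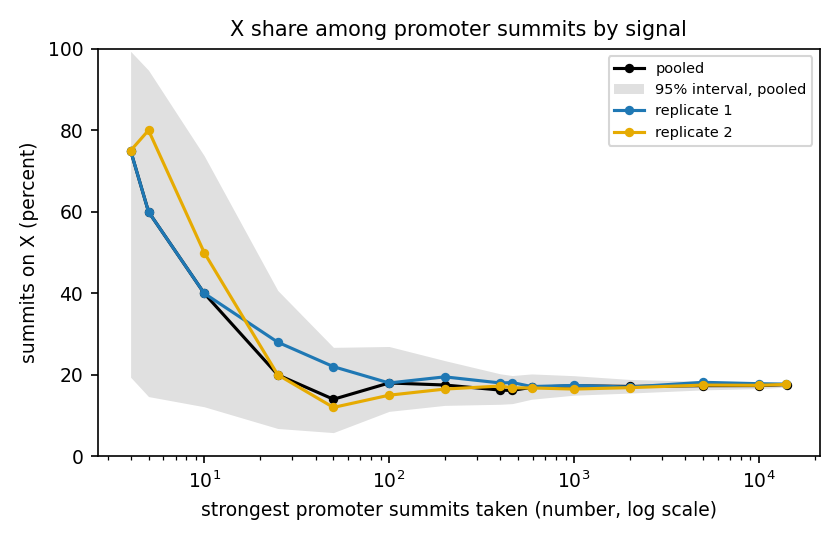
Percent of promoter summits on X (vertical axis) among the strongest promoter summits taken (horizontal axis, log scale) in the pooled list and in each replicate, with the exact 95% interval of the pooled share as a grey band. All 3 lines start at 75% for the first 4 summits and lie between 15 and 18% at the first 100.

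The 4 leading members stood apart from the rest of X promoters in both replicates. The nspc-17 member (chromosome X, 14525674 to 14526106) had a pooled signal of 269.5 and ranked 7 of all entries, with 131.9 in replicate 1 and 147.2 in replicate 2. Its summit lay 701 bp upstream of nspc-17, a gene of the nematode specific peptide family, group C. The member at C18A11.13 (8036237 to 8036660) had a pooled signal of 258.5, with 141.7 in replicate 1 and 107.1 in replicate 2. That summit preceded C18A11.13, a noncoding RNA gene, by 236 bp. It lay 319 bp past the start of C18A11.t2, a tRNA-Arg gene on the other strand, and so beyond its end.

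The member at the snoRNA gene T27A8.8 (16056388 to 16056762) had a pooled signal of 231.3, with 111.8 in replicate 1 and 108.3 in replicate 2, and a summit 773 bp upstream. The member at ins-39 (1344877 to 1345195), an insulin-related peptide gene, had a pooled signal of 185.3, with 86.77 in replicate 1 and 97.08 in replicate 2, and a summit 605 bp upstream. All 4 summits were intergenic, and 3 of them lay 605 bp or more from the nearest annotated 5′ end, which puts them outside the narrower promoter windows tried. The 4 ranked within the first 17 entries in both replicates.

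The next member was far lower. It lay between 5841254 and 5841422, with its summit in exons of the noncoding RNA genes W06B11.7 and W06B11.9 and 291 bp upstream of puf-9, which encodes an RNA-binding protein of the Pumilio family. Its pooled signal was 101.0, with 51.11 in replicate 1 and 46.3 in replicate 2. The remaining members had signals from 72.36 down to 5.53.

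**Figure D2:**
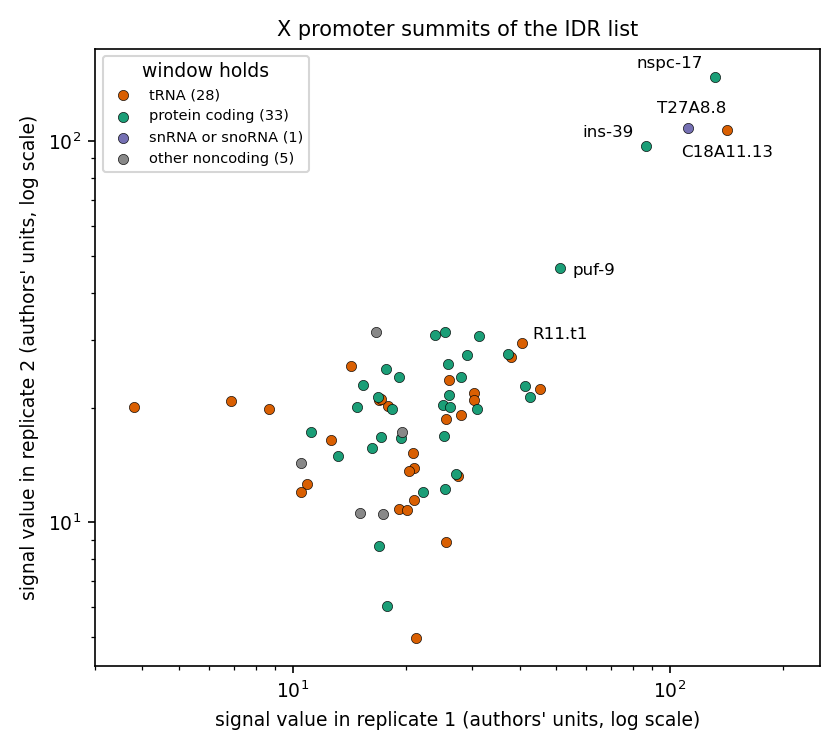
Signal value in replicate 1 (horizontal axis) and replicate 2 (vertical axis), both on log scales in the authors' units, of the 67 members of the IDR list with a summit within 100 bp in both replicate lists. Points are members, coloured by the class of gene in the promoter window; the members at nspc-17, C18A11.13, T27A8.8 and ins-39 sit apart at the upper right, and puf-9 lies between them and the rest.

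Among the 25 strongest members, 8 had a tRNA gene in the window, 15 had a protein coding gene and no gene of a small structural RNA, 1 had the snoRNA gene T27A8.8 and 1 only the noncoding RNA gene T14G8.5. A window that held a tRNA gene was counted in the tRNA class whatever else it held. A single gene occupied the window of 13 of the 25, so for the other members the gene that a summit belongs to cannot be told apart.

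The strongest tRNA member after C18A11.t2 lay at the 3 tRNA-Tyr genes R11.t1, R11.t2 and R11.t3, with its summit 12 bp upstream of R11.t1. Its signal was 72.36, with 40.58 in replicate 1 and 29.5 in replicate 2. The next, between the divergent genes M02F4.t1 (tRNA-Gly) and M02F4.t2 (tRNA-Glu), had a signal of 70.01, with 38 in replicate 1 and 27.11 in replicate 2. The remaining 5 of the 25 had signals from 49.69 to 61.94. They were at R04A9.t1 (tRNA-Gln, shared with ZK1193.2), C33G3.t2 (tRNA-Lys), F41D9.t3 (tRNA-Asn), the tRNA-Ala pair F15G9.t1 and F15G9.t2, and C28G1.t1 (tRNA-Glu). The last of these shared its window with C28G1.2, annotated as a serpin, and with sec-15, which encodes a subunit of the exocyst, the complex that tethers secretory vesicles to the plasma membrane.

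After nspc-17, ins-39 and puf-9, the protein coding members of the 25 were led by serp-1.1, rpl-11.2 and F17E5.2. The serp-1.1 member had a signal of 65.01, with 42.68 in replicate 1 and 21.32 in replicate 2. The gene encodes a stress-associated protein of the endoplasmic reticulum, and the summit lay 300 bp upstream. The member upstream of rpl-11.2, a protein of the large ribosomal subunit, and of the long noncoding RNA gene linc-78 had a signal of 64.03, with 41.38 in replicate 1 and 22.74 in replicate 2. The member at F17E5.2, a putative mitochondrial carrier gene, had a signal of 62.18, with 31.28 in replicate 1 and 30.74 in replicate 2. Ranks were 43 in replicate 1 and 254 in replicate 2 at serp-1.1, 47 and 216 at rpl-11.2, and 108 and 100 at F17E5.2, so the replicates ranked the last of these most alike.

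Signals from 47.78 to 58.52 were found at the other 9 coding members. These were F55G7.1, C09G1.2, zfp-3 with a zinc finger domain of the C3H1 type, and ftt-2, a 14-3-3 protein gene whose summit lay 505 bp upstream. The rest were at pdi-6, a protein disulphide isomerase gene (51.15, 6 bp downstream of its 5′ end), nipi-3, a Tribbles-related pseudokinase gene (50.01), bet-2, which encodes a bromodomain protein (48.0), epn-1, whose product has the ENTH domain of the endocytic epsins (57.45), and eef-1A.2 (47.78). The bet-2 member had no summit within 100 bp in replicate 2, and the member at epn-1 and T04C10.8 had none in replicate 1.

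A larger share of promoter summits had a tRNA gene in the window on X than on autosomes, and a larger share of these was in the IDR list. The window does not say which gene a summit belongs to: a tRNA gene was the nearest in 163 of 234 such members on X and 173 of 260 on autosomes, and in the IDR list in 24 of 30 on X and 6 of 12 on autosomes. A protein coding gene was also in the window of 49 on X and 94 on autosomes. X carries 276 tRNA genes among its 5860 annotated genes other than piRNA, and the autosomes together 336 among 25667. So tRNA genes were also a larger part of the annotation on X. A tRNA gene was in the window of 234 members (9.37%, interval 8.25 to 10.6%) and of 260 autosomal promoter summits (2.23%, interval 1.97 to 2.51%). Of these, 30 members on X were in the IDR list (12.8%, interval 8.82 to 17.8%), against 12 on autosomes (4.62%, interval 2.41 to 7.92%). They made up 40% of all X promoter summits of the IDR list and 3.09% of the autosomal ones. In replicate 1 the first 590 entries held 29 of 220 tRNA members on X (13.2%) and 17 of 281 on autosomes (6.05%). In replicate 2 they held 26 of 215 on X (12.1%) and 11 of 252 on autosomes (4.37%). The share was higher on X in both replicates, and the intervals overlapped in replicate 1 but not in the pooled list or in replicate 2.

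**Figure D3:**
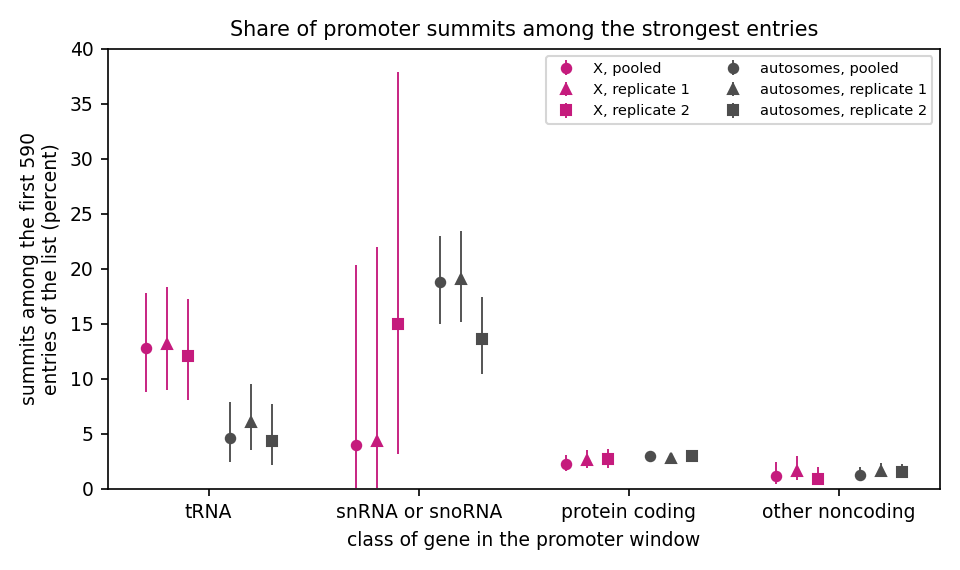
Percent of promoter summits among the first 590 entries of the list (vertical axis) by class of gene in the window, with X left of the autosomes and the pooled list, replicate 1 and replicate 2 as circle, triangle and square. Bars are exact 95% intervals for counting error; X lies above the autosomes for tRNA windows in all 3 lists.

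Most tRNA summits of the IDR list on X lay close to a tRNA 5′ end, on either side of it. On X, 25 of 30 lay within 100 bp of a tRNA 5′ end (83.3%), with a median of 17.5 bp upstream, and on autosomes 7 of 12 did (58.3%), with a median of 4.5 bp upstream. The median signal of all tRNA members was 13.3 on X and 10.9 on autosomes. Over the annotation, a promoter summit was found for 224 of 276 tRNA genes on X (81.2%) and for 233 of 336 on autosomes (69.3%). Several tRNA genes shared the window in 10 of the 30 IDR members on X and in 3 of the 12 on autosomes, so genes outnumber peaks. The IDR members on X touched 43 tRNA genes of 15 isotypes, of 19 isotypes with a named product on X. The isotypes with most genes were Pro (8 of 20 genes, in 5 peaks), Gln (7 of 15, in 3 peaks), Tyr (4 of 8, in 2 peaks) and Gly (4 of 20, in 3 peaks). No tRNA-Cys, tRNA-His, tRNA-Met or tRNA-Val gene on X was among them, out of 7, 9, 8 and 13 genes. Over all tRNA genes on X the share was 43 of 276 (15.6%), so nothing is read from these absences or from single isotypes.

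Copies of a tRNA gene can share reads, and how the authors treated such reads is not given in the sources used here. An identical copy elsewhere in the genome existed for 219 of 276 tRNA genes on X (79.3%) and for 250 of 336 on autosomes (74.4%). The 51 bp at the summit itself occurred again in the genome for 18 of 234 tRNA members on X (7.69%) and for 34 of 260 on autosomes (13.1%). In the IDR list this held for 2 X members, at T07H6.t2 (6 copies) and C02B4.t2 (8 copies). Over all members of the IDR list it held for 2 of 75 on X and 7 of 389 on autosomes. The part of shared reads in the tRNA signals was not tested.

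For protein coding genes the IDR share was lower on X than on autosomes, with overlapping intervals. The class leaves out windows that also held a tRNA, snRNA or snoRNA gene. It held 1643 members (65.8%) on X and 9327 promoter summits (79.8%) on autosomes. Of these, 37 on X were in the IDR list (2.25%, interval 1.59 to 3.09%) and 282 on autosomes (3.02%, interval 2.69 to 3.39%). The shares were closer in each replicate. Among the first 590 entries they were 2.60% on X and 2.81% on autosomes in replicate 1, and 2.67% and 3.03% in replicate 2. Over all windows with a coding gene, 42 of 1699 on X and 328 of 9597 on autosomes were in the IDR list. In the IDR list the coding summits on X lay a median of 291 bp upstream of the nearest coding 5′ end and those on autosomes 177.5 bp upstream. All but 1 of the 37 on X were upstream (97.3%), as were 88.7% on autosomes. The exception on X was pdi-6. With all coding members, medians were 203 bp upstream on X and 139 bp upstream on autosomes.

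**Figure D4:**
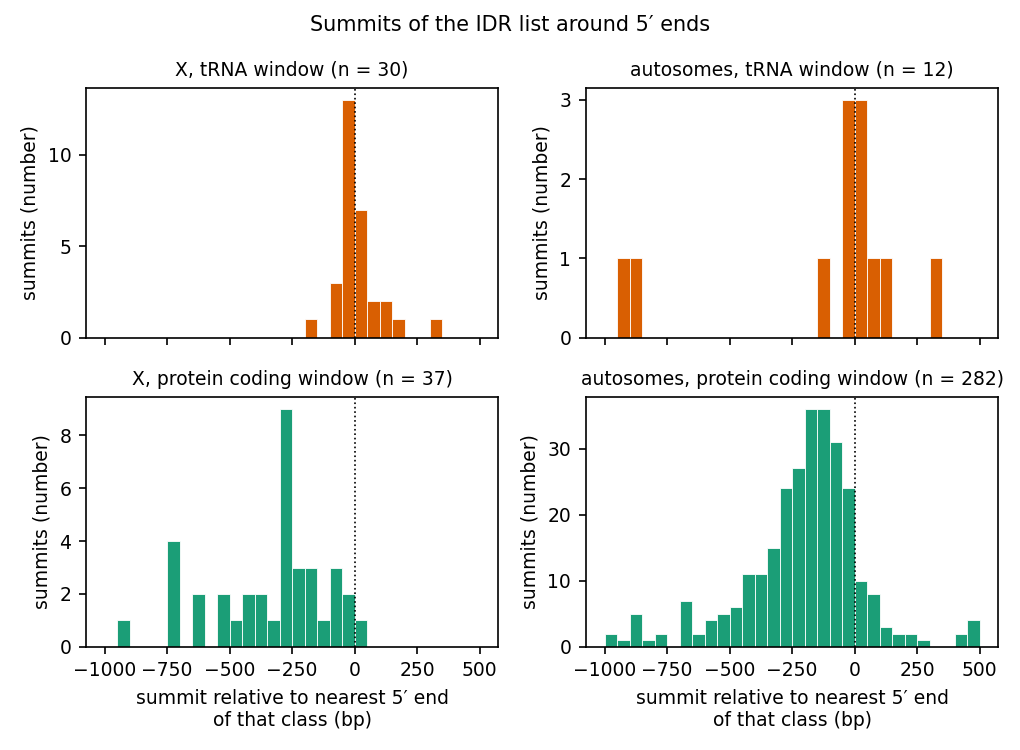
Number of summits of the IDR list (vertical axes, scales differ) by distance in bp to the nearest 5′ end of the class (horizontal axes, negative is upstream, bins of 50 bp), with X on the left and autosomes on the right, tRNA windows above and protein coding windows below. The tRNA summits on X gather within 100 bp of the 5′ end, while the coding summits on X spread upstream with a median of 291 bp.

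Below the 25 strongest, the following coding members of the IDR list, apart from hsp-3, were named after their values were seen. The hsp-3 member, at an Hsp70 chaperone gene of the endoplasmic reticulum, had a signal of 41.6, with 26.08 in replicate 1 and 20.12 in replicate 2. Signals were 41.21 at sec-3, another exocyst subunit, 36.65 at uggt-1, a glucosyltransferase that checks glycoprotein folding, and 34.16 between trap-2, a subunit of the translocon-associated complex, and ile-2, with an L-type lectin domain. Others were at dpy-23 (40.16), the mu subunit of the clathrin adaptor AP-2, and hst-2 (40.22), a heparan sulphate sulphotransferase gene. These genes are described, not tested as a group.

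Small structural RNA genes were few on X. The class held 25 members, of which T27A8.8 alone was in the IDR list (4%, interval 0.101 to 20.3%). On autosomes it held 389 promoter summits, of which 73 were in the IDR list (18.8%, interval 15.01 to 23.01%). A protein coding gene was also in the window of 7 members on X and 176 summits on autosomes. These shares therefore describe windows, and the gene that a summit belongs to was not settled. The summit at T27A8.8 was 773 bp from the gene. The next snoRNA genes on X were C53B7.8 (25.27), W01H2.11 (25.21) and K09E9.5 (24.1), all below the IDR list. In replicate 2 alone, 3 of 20 X members of the class were among the first 590 entries (15%, interval 3.21 to 37.9%), so the few members on X leave the share loosely fixed.

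Other noncoding RNA genes alone occupied the windows of 596 members on X (23.9%), 7 of them in the IDR list (1.17%), and of 1708 promoter summits on autosomes (14.6%), 22 of them in the IDR list (1.29%). The strongest of these on X was T14G8.5, with a signal of 57.72, 16.66 in replicate 1 and 31.57 in replicate 2. In the annotation, genes of the ncRNA biotype number 2520 of 5860 on X and 5244 of 25667 on autosomes. Long noncoding RNA genes in the IDR list were linc-78 and linc-54 (40.65). Of 74 miRNA genes on X, 28 had a promoter summit and 0 were in the IDR list, against 95 of 187 and 7 on autosomes. Over genes of all biotypes 45.8% had a summit and 2.53% were in the IDR list on X, against 43.8% and 2.71% on autosomes, so nothing is read from the 0. The highest on X were cel-mir-55, cel-mir-56 and cel-mir-55b, which share a summit of 23.86, with 13.54 in replicate 1 and 12.27 in replicate 2. No pseudogene or antisense RNA gene on X had a summit in the IDR list, and the highest of these were ZK380.t2 (17.17, matched in replicate 1 only) and C44C10.13 (10.91, matched in neither).

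The gene families below were filled by symbol, and their counts stand beside those of all protein coding genes. Of these, 46.7% on X and 45.3% on autosomes had a promoter summit, and 1.65% on X and 2.64% on autosomes were in the IDR list. At these shares nothing is read from 0 or 1 gene of a small list in the IDR list. Of the receptor's own family, 15 of 27 nuclear hormone receptor genes on X had a promoter summit and 0 were in the IDR list, against 116 of 247 and 5 on autosomes. The highest on X were nhr-48 (27.78, with no match in replicate 1 and 16.18 in replicate 2), nhr-255 (24.57), nhr-1 (21.31) and nhr-40 (16.73). They ranked from 646 to 2266 in the pooled list. The nhr-255 summit lay nearer to the tRNA gene ZK678.t1 than to nhr-255. Both ribosomal protein genes on X had a summit, at rpl-11.2 and at rpl-25.1 (23.86, matched in replicate 2 only), and 1 was in the IDR list, against 31 of 80 genes on autosomes.

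Genes of sex determination and dosage compensation had 4 of 6 members on X with a summit. The only one in the IDR list was sdc-2, whose product recruits the dosage compensation complex to X. Its summit lay 410 bp upstream with a signal of 45.14, 30.84 in replicate 1 and 19.78 in replicate 2. The others were sdc-1 (9.54), ceh-39 (8.89) and fox-1 (7.41), near the pooled median; fox-1 was matched in neither replicate and the other pair in replicate 2 only. On autosomes 12 of 16 genes of the list had a summit and 0 were in the IDR list.

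Neuropeptide genes had a summit at 11 of 36 genes on X (30.6%) and 45 of 107 on autosomes (42.1%), beside 46.7% and 45.3% of all coding genes, and ins-39 was the only one in the IDR list on X, with 0 on autosomes. The next on X was nlp-76 (10.55, matched in replicate 1 only). The nematode specific peptide genes had a summit at 9 of 19 genes on X (47.4%) and 7 of 39 on autosomes (17.9%). After nspc-17 with 269.5 came the pair nspc-18 and nspc-19, sharing a summit of 7.73 with no match in either replicate, and nspc-20 (7.37, matched in replicate 2 only), so the family's other promoters on X were below the median of all members.

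Of the oxidative phosphorylation list 5 of 6 genes on X had a summit and 1 was in the IDR list, asb-2, a mitochondrial ATP synthase subunit gene (46.59, with 25.2 in replicate 1 and 16.87 in replicate 2). On autosomes the counts were 31 of 38 and 8, and ucr-2.2 (27.31) was next on X. Of the chaperones 3 of 5 on X had a summit and hsp-3 was in the IDR list, against 37 of 54 and 10 on autosomes, with hsp-25 (17.94) next. The Wnt and Notch list had mom-1, which encodes the porcupine acyltransferase of Wnt secretion, in the IDR list through the summit at the tRNA-Ala gene T07H6.t2 (43.31).

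No gene of the remaining lists on X was in the IDR list, where the share of all coding genes on X was 1.65%. These were the potassium channels (8 of 19 genes with a summit, led by unc-58 at 27.48), the heterochronic genes (4 of 4, led by lin-14 at 22.98), the cuticle collagens (11 of 30, led by col-185 at 25.07) and the fatty acid genes (7 of 8, led by acs-22 at 19.41). They also included ligand-gated channels (11 of 28, lgc-25 at 19.4), neuropeptide and amine receptors (14 of 34, npr-8 at 13.11), homeobox genes (10 of 25, ceh-54 at 11.99) and chemoreceptors (4 of 28, srv-7 at 18.33). The muscle list had 8 of 10 genes with a summit, led by act-4 at 11.89. The insulin and TGF-beta pathway list had 4 of 5, led by sma-9 at 14.01, and the F-box list 5 of 17, led by fbxa-141 at 13.09. Vitellogenins had 2 of 5 (vit-5 at 6.96) and C-type lectins 1 of 3 (clec-265 at 5.76). Several of these leading entries lacked a summit within 100 bp in a replicate. These were lin-14 and ceh-54 in both replicates, act-4 and vit-5 in replicate 2, and npr-8, sma-9 and clec-265 in replicate 1. The lin-14 entry of 22.98 lay nearer to the genes T25C12.8 and T25C12.9 than to lin-14. A weaker summit (17.85), 112 bp upstream of a lin-14 5′ end, was matched in both replicates. The summits of unc-58, col-185 and lgc-25 also had a tRNA gene in the window, nearer than the gene named here.

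Most members were weak and found in 1 replicate or none. A summit within 100 bp existed in both replicate lists for 402 members (16.1%, interval 14.7 to 17.6%) and for 2061 autosomal promoter summits (17.6%, interval 16.95 to 18.34%). On X, 759 members were matched in replicate 1 only, 649 in replicate 2 only and 688 in neither. In the IDR list 67 of 75 members (89.3%) and 357 of 389 autosomal summits (91.8%) were matched in both. Members of that list were chosen on the pooled signal of the same libraries, so part of this recovery follows from the choice. Spearman's rho between the replicates' signals was 0.573 over the 402 matched members and 0.486 over the 2061 matched autosomal summits. These points share libraries and a control and the correlations are descriptions.

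Of the 75 members, 38 were among the first 590 entries of both replicates and 5 among the first 50 of both. The 8 members matched in 1 replicate were 6 without a match in replicate 2 and 2 without a match in replicate 1. Besides bet-2, epn-1 and the tRNA-Ile gene C42D8.t1 (45.72), they were C16B8.t2, F33C8.9, cebp-1, C30E1.9 and C07D8.6, with signals from 30.01 to 33.74. Replicate 2 did have a summit at C42D8.t1, ranked 76 with a signal of 33.82, which matched another, weaker member there (18.84). Ranks could also differ widely where both replicates had a summit. The member at F56C3.t1 ranked 308 in replicate 2 with a signal of 20.01 and 24643 in replicate 1 with a signal of 3.8.

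The IDR boundary fell between members of nearly equal signal. The lowest 3 members inside were at T10B10.t2 (29.53), his-24, a linker histone gene (29.33), and F46F2.12 (29.26). The highest 3 outside were at F18H3.4 (28.86), F59F5.9 (28.85) and C04C11.t1 (28.72). Inside, all 3 had a summit in both replicates, and outside each of the 3 had one in 1 replicate only. The next member outside, at F13C5.2 (28.45), had a summit in both, so nothing is read from this contrast.

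Exact motif matches were counted on both strands within the 201 bp around each summit. GCGCAGGG was found in 11 of 2498 X windows (0.440%, interval 0.220 to 0.786%) and in 15 of 11684 autosomal promoter windows (0.128%, interval 0.0719 to 0.212%). In the IDR list it was in 4 of 75 on X (5.33%, interval 1.47 to 13.1%) and in 2 of 389 on autosomes (0.514%, interval 0.0623 to 1.84%), and these intervals overlapped. Above a signal of 100 it was in 3 of 5 on X (60%, interval 14.7 to 94.7%) and in 0 of 16 on autosomes (interval up to 20.6%). On X outside promoters 9 of 15 summits above that signal held it (60%, interval 32.3 to 83.7%). The fourth X member in the IDR list was that of F38G1.t2 and egl-17, a fibroblast growth factor gene, with a signal of 40.8. Between signals of 50 and 100, 0 of 17 members held the motif, and the 7 members with it below the IDR list had signals from 6.11 to 21.8, led by R04E5.9.

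The B box core GGTTCGA followed the tRNA class. It was in 84 of 234 tRNA windows on X (35.9%) and in 87 of 260 on autosomes (33.5%), beside 1.46% of coding windows on X and 1.65% on autosomes. Among the 30 tRNA members of the IDR list on X it was in 13 (43.3%). GAGAGAGA was in 11 of 75 IDR members on X (14.7%, interval 7.56 to 24.7%) and in 30 of 389 IDR summits on autosomes (7.71%, interval 5.26 to 10.8%). The share was 2.80% over all X members and 3.32% over all autosomal promoter windows. A long repeat at C02D4.15 alone held 31 overlapping matches.

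The hexamer AGGTCA was in 6.49% of X windows (interval 5.55 to 7.52%) and 5.08% of autosomal promoter windows (interval 4.68 to 5.49%). In the IDR list it was in 8 of 75 on X (10.7%, interval 4.72 to 19.9%) and 4.63% on autosomes, and 6 of the 8 were in tRNA windows. R11.t1 and C33G3.t2 were among them, and F17E5.2 among the coding members. At R11.t1 and C02B4.t2, both tRNA-Tyr genes, the match was part of the tRNA gene sequence. Whether any match is a receptor site was not tested. The related AAGTCA was in 10.2% of X windows and 8.22% of autosomal ones, and in 8% of IDR members on X and 5.14% on autosomes. Base composition moved with the IDR list. The median GC content of the 201 bp was 47.8% for IDR members on X and 41.8% for IDR promoter summits on autosomes, beside 36.8% over all X members and 35.8% over all autosomal promoter summits. TGATAA, the core of GATA factor sites, was in 5.33% of IDR members on X and 12.3% on autosomes, beside 19.3% of all X windows and 19.2% of all autosomal windows. The part of GC content in these shares was not tested.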

How the data were processed

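ChIP-seq peak lists in the narrowPeak layout were deposited by the authors on assembly ce11, called against a control per the labels. They cover replicate 1, replicate 2, both pooled, and the IDR-thresholded set. The pooled list is labelled as peaks and background for input to IDR, so a member need not be a bound site. Not given in the sources used here: aligner, peak caller, versions, IDR threshold and read depth. The deposited signal value is the authors' score per peak, taken as enrichment from the narrowPeak layout. Its scale differs between lists, so peaks were ranked only within a list.

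Genes came from Ensembl release 115 (WBcel235, 41753 5′ ends other than piRNA), products and sequence from RefSeq. Every ce11 entry ended inside its chromosome of that genome. A summit counted in each promoter window it fell in, and summits at most 100 bp apart in different lists were matched. Classes were assigned in the order tRNA, snRNA or snoRNA, protein coding, other noncoding. Shares carry exact 95% Clopper-Pearson intervals. With 1 group of 2 samples no test was made and nothing was paired.

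The members and gene lists were chosen with earlier results of these data known. Named genes were the 25 strongest members, 3 on either side of the IDR boundary, up to 4 per biotype and gene list, and the 3 strongest autosomal promoter summits, unless stated otherwise. Alternatives covered the list used, the promoter window, the 5′ ends, repeated entries, the matching distance, the threshold and the motif window. Python 3.11.15, numpy 2.4.6, pandas 2.3.3, scipy 1.17.1 and matplotlib 3.10.9 were used, and the window, matching and motif steps were tested on simulated data. Lists on ce10 were not used.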

Additional observations from a re-analysis of the deposited data

How the results depend on the processing

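Of 122 values recomputed under alternatives, 87 stayed within 1.5 times a count or within the interval or spread of the reported value, and 35 moved. With windows of 300 bp upstream to 100 bp downstream, members numbered 1060, of which 5.76% were in the IDR list, 22.9% were matched in both replicates and 54.6% had a coding window, at a median distance of 81 bp. With 500 bp on either side, the matched share was 17.65%, the distance 186 bp and the coding share 63.2%. With either window, 1 of the 5 strongest X members held GCGCAGGG, against 3 as reported. The motif-holding summits at nspc-17 and ins-39, 701 and 605 bp upstream, fall outside both windows and were no longer members. The tRNA alternatives and the motif count among the 5 strongest members were added after seeing the data. The share of tRNA members on X in the IDR list was 17.4% with 300 bp upstream to 100 bp downstream. It was 14.5% with 500 bp on either side. On autosomes the shares were 4.94 and 4.61% in that order. With protein coding 5′ ends only, the ratio of median signals, X over autosomes, was 0.960 and the distance 323 bp. Entries above the median signal of the IDR list included 1.64% of members and 5.98% of tRNA members. Matching within 50 bp gave 8.17% in both replicates and within 200 bp 27.2%. The reported motif windows reached 100 bp to either side of the summit. With 50 bp to either side, the shares of X members were 3.32% for AGGTCA, 4.804% for AAGTCA, 9.81% for TGATAA and 1.60% for CACGTG. They were 1.60% for GAGAGAGA, 2.28% for GGTTCGA and 14.2% for TTTCAG. With 150 bp to either side they were 9.73, 14.97, 27.1, 5.16, 3.72, 6.21 and 36.9% in that order. With either replicate's list alone, the ratio of median signals was 0.991 to 1.03, the distance 265.5 to 273 bp, the coding share 66.0 to 67.3% and the share with AAGTCA 8.93 to 9.98%. No paired analysis was possible because there is 1 group only. The cause of each change was not tested. Read depth and the control were not analysed here, and the signal ranks peaks within a list only.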

Other observations

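Members were spread along the whole of X. Full bins of 1 Mb held between 86 and 179 members, and the last, shorter bin held 69. Members of the IDR list numbered 1 to 9 per full bin, with 9 between 15 and 16 Mb and 8 between 14 and 15 Mb, and 0 in the last bin. The tRNA members clustered more, with 42 between 8 and 9 Mb and 28 between 16 and 17 Mb, of which 5 and 2 were in the IDR list. The median signal per bin lay between 7.65 and 9.13.

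By annotation of the summit base, 46.0% of members were intergenic, 26.7% intronic, 12.4% in coding sequence and 9.05% in noncoding exons, against 39.02, 28.2, 19.2 and 5.20% of autosomal promoter summits. In the IDR list the intergenic share was 65.3% on X and 64.0% on autosomes, and noncoding exons held 24% on X and 15.4% on autosomes. Coding sequence held 0 of 75 members of the IDR list and 16 of 389 autosomal ones (4.11%). E-box (CACGTG) shares were 3.36% of X windows and 3.65% of autosomal windows. The splice acceptor TTTCAG was in 25.9% of X windows and 35.0% of autosomal windows, and in 5.33% of IDR members on X and 21.1% on autosomes.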
